A study of Microtus ochrogaster with 40 samples.

Results

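The genes described here are the axon guidance ligands and receptors of the prairie vole (Microtus ochrogaster), measured in nuclei of the nucleus accumbens. They were picked by a rule on names, set with earlier results of these data known. It covered semaphorins, plexins, neuropilins 1 and 2, netrins and netrin-Gs, Dcc, the Unc5 receptors, Slits, Robos, Eph receptors and ephrins. The deposited gene list of 19130 genes held 69 of them, 36 ligands and 33 receptors. All 69 symbols were also found by name among the vole's RefSeq genes. By family they were 6 class 3 semaphorins, 13 semaphorins of classes 4 to 7, 10 plexins and neuropilins, 11 netrins and netrin receptors, 7 Slits and Robos, 9 EphA receptors, 5 EphB receptors and 8 ephrins. Sema3b and Plxnb2 were not analysed here. The study put each vole with an unfamiliar partner of the opposite sex (a mate) or of its own sex (a peer) for 16 days, then took the accumbens of each brain on its own. Each of the 40 single-nucleus libraries therefore came from 1 animal: 11 female mates, 8 female peers, 11 male mates and 10 male peers. The labels give only sex and partner type as differences between the groups. The labels did not name the partners of an animal, so 2 animals that lived together may both be in the data and may not be independent. The tests of pairing and sex took no account of this.

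Guidance ligands are secreted, membrane-bound or lipid-anchored proteins that steer growing axons and migrating cells by attraction or repulsion. Semaphorins signal through plexins, with neuropilins as co-receptors for most secreted class 3 members. Netrins act through Dcc and Unc5 receptors, Slits through Robos, and ephrins through Eph receptor kinases, where the ephrin itself can also signal back into its own cell. In the adult brain many of these genes stay on in neurons, glia and vessels, where they are known for roles in synapses, myelin and the vessel wall.

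The libraries held 194518 barcodes and 353673015 UMIs (unique molecular identifiers, counts of captured RNA molecules). After filters, 178387 nuclei were kept, between 1767 and 7666 per library, and the median UMI count per nucleus ranged over the libraries from 652 to 2140.5. The 780 pairs of libraries shared a median of 30 barcode sequences (2 to 146), at most 2.22% of the smaller library. Clustering, done without the guidance genes, gave 25 clusters. Of these, 20 were named from marker lists and formed 15 classes, written here as "-like" since they were rebuilt, and 12.0% of nuclei stayed unnamed. The largest classes were D2 and D1 medium spiny neuron-like nuclei, with 17.1% and 16.7% of nuclei, named from the dopamine receptor and peptide genes of the 2 striatal output pathways. Some libraries stood apart in their makeup. Glutamate neuron-like nuclei were 40.9% of male mate 2 and 0.531% of male peer 5, astrocyte-like nuclei were 0.224% of male mate 2, and unnamed nuclei were 41.9% of female peer 1. Results were therefore also computed without male mate 2 and without female peer 1.

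Levels are given in CPM, the UMIs of a gene scaled to a fixed total for a class in 1 animal, over animals with at least 20 nuclei of that class. They were compared between classes of nuclei for 1 gene and never between genes, since the captured RNA depends on a gene's length and annotation. Of the 69 genes, 64 reached a mean of 20 CPM in some class and 5 did not (Efna4, Epha1, Epha2, Ntn3 and Ntn5). The highest mean lay in a neuron class for 44 genes (22 ligands and 22 receptors) and in a glial or vascular class for 25 (14 ligands and 11 receptors). Other GABA neuron-like nuclei held the highest level of 8 genes, vascular cell-like nuclei of 7, and D1 medium spiny, glutamate neuron and differentiating oligodendrocyte-like nuclei of 6 each. Among the 64 genes that reached 20 CPM, the highest class mean was at least 2 times the next in 14. These counts are over the 15 named classes, and unnamed clusters were left out. Cluster 13, unnamed and described below, had Plxnb1 and Efnb1 at higher medians than the next class of each. At a finer clustering (resolution 2) all 69 genes kept the same highest class. The levels by class are a description, with no test.

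**Figure D1:**
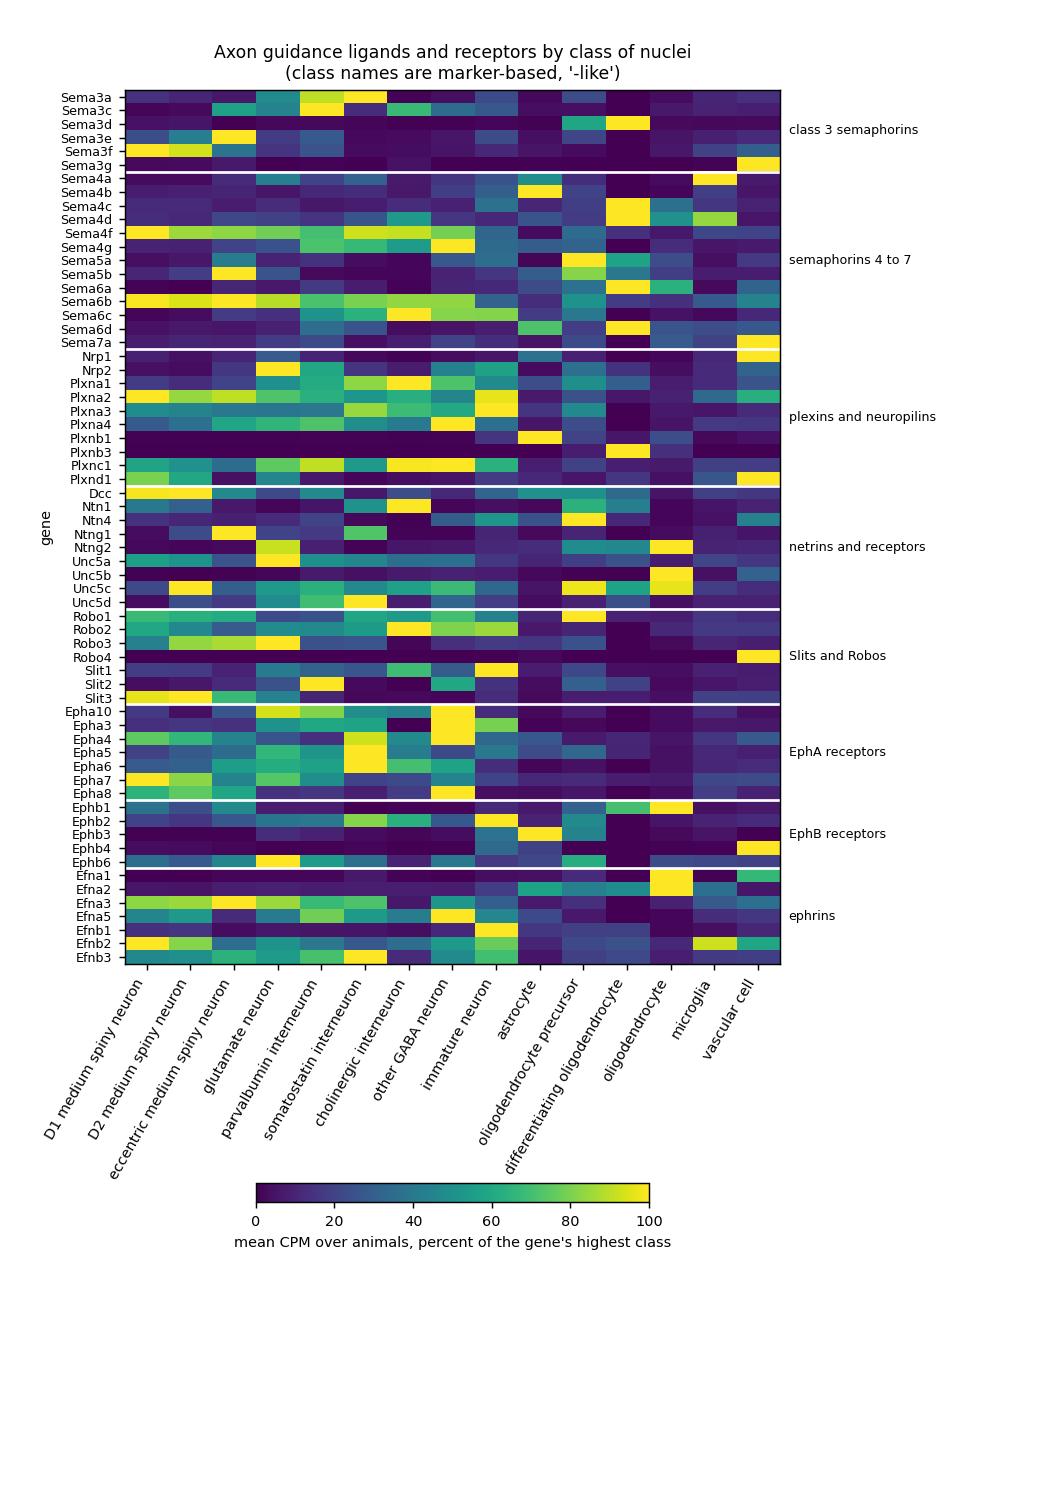
Mean level of the 64 genes that reached 20 CPM (rows, by family) in each of 15 classes of nuclei (columns), as a percent of that gene's highest class mean, from dark (0) to yellow (100). Robo4, Ephb4 and Sema3g are yellow in the vascular column alone, Plxnb1 and Sema4b in the astrocyte column, and Slit3, Dcc and Sema3f are brightest in the D1 and D2 columns.

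Class 3 semaphorins, the secreted ones, were spread over different classes. Sema3g, best known from vessels, was highest in vascular cell-like nuclei (0 to 192 CPM over 37 animals, median 81.2), against a mean of 5.35 CPM in the next class, eccentric medium spiny neuron-like nuclei, and was higher there in 35 of 37 animals. Sema3e, which binds Plxnd1 directly, was highest in eccentric medium spiny neuron-like nuclei, a further spiny type marked by Otof and Foxp2. It ranged there from 67.9 to 220 CPM (median 117) and from 25.1 to 87.6 CPM (median 48.3) in the next class, the D2 nuclei, and was higher in the eccentric nuclei in 40 of 40 animals. The parvalbumin interneuron-like class was mixed by its markers: its 6 parvalbumin markers summed to 1325 CPM, beside 2051 CPM in other GABA neuron-like nuclei, its 4 somatostatin markers summed to 3974 CPM, and both Pvalb and Sst were among its leading genes. Sema3c was highest in this class (7.73 to 167 CPM, median 60.9), with the cholinergic class next (median 44.7). These neighbours overlapped, and Sema3c was higher in the parvalbumin class in 20 of the 25 animals with both. Sema3d stood in the oligodendrocyte lineage: 110 to 209 CPM in the 3 animals with enough differentiating oligodendrocyte-like nuclei and 0 to 216 CPM (median 85.0) in precursor-like nuclei, while no other class mean passed 8.70 CPM.

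Among the membrane-bound semaphorins, Sema7a, the lipid-anchored ligand of Plxnc1, ranged from 215 to 1251 CPM (median 516) in vascular cell-like nuclei and from 85.8 to 295 CPM (median 160) in oligodendrocyte-like nuclei, the next class. It was higher in the vascular nuclei in 37 of 37 animals. Sema4b was an astrocyte gene, with 202 to 608 CPM (median 387) there and 47.7 to 221 CPM (median 110) in immature neuron-like nuclei, and was higher in the astrocyte-like nuclei in 38 of 38 animals. Sema4a had its highest mean in microglia-like nuclei, but its values ran there from 0 to 370 CPM (median 120) and overlapped those of astrocyte-like nuclei (30.9 to 101 CPM, median 65.9), with 29 of 39 animals higher in microglia. Sema4c was highest in the 3 animals with differentiating oligodendrocyte-like nuclei (median 334 CPM, lowest 275), ahead of immature neuron-like nuclei (38.6 to 274 CPM, median 151). Sema6a, Sema6d and Sema4d had their highest means in the differentiating oligodendrocytes too, at 283, 413 and 150 CPM, again over 3 animals only.

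Of the semaphorin receptors, Plxnb1, the receptor of Sema4d, was highest in astrocyte-like nuclei. It lay between 402 and 722 CPM (median 534) in astrocyte-like nuclei and between 58.9 and 214 CPM (median 128) in oligodendrocyte-like nuclei. The 2 ranges did not overlap in any of 39 animals. Plxnb3 was highest in the oligodendrocyte lineage, with 1653 to 2215 CPM in differentiating nuclei (3 animals), 97.8 to 369 CPM (median 273) in oligodendrocyte-like nuclei, a mean of 152 CPM in precursor-like nuclei and 4.54 CPM in astrocyte-like nuclei. Nrp1, the co-receptor of Sema3a, was a vascular gene first (215 to 787 CPM, median 474) and an astrocyte gene second (78.2 to 376 CPM, median 174), and was higher in vascular nuclei in 35 of 36 animals. Nrp2, the co-receptor of Sema3f, was instead highest in glutamate neuron-like nuclei (93.5 to 301 CPM, median 181), then in parvalbumin interneuron-like nuclei (36.1 to 302 CPM, median 109). The 2 neuropilins therefore had different highest classes, and the values of both overlapped between their first 2 classes.

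Of the netrin ligands, Ntn1, the founding secreted netrin, was highest in cholinergic interneuron-like nuclei (85.7 to 387 CPM over 25 animals, median 224). Oligodendrocyte precursor-like nuclei came next (37.5 to 247 CPM, median 142) and overlapped them, with 20 of 25 animals higher in the cholinergic class. Ntn4, a netrin related to laminins, was highest in precursor-like nuclei (38.5 to 270 CPM, median 173) and next in immature neuron-like nuclei (15.4 to 174 CPM, median 86.8). Among the receptors, Unc5b, known from vessels, was highest in oligodendrocyte-like nuclei (64.0 to 229 CPM, median 130) and next in vascular ones (0 to 206 CPM, median 39.0). It was higher in the oligodendrocytes in 36 of 37 animals. Unc5a was a neuronal receptor, with 166 to 281 CPM (median 215) in glutamate neuron-like nuclei and 84.6 to 167 CPM (median 116) in D1 nuclei, and was higher in the former in 40 of 40 animals. Dcc, the attractive netrin receptor, was at nearly the same level in the 2 classes where it was highest, with medians of 198 CPM in D2 and 193 CPM in D1 nuclei.

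Robo4, the Robo of endothelial cells, had the sharpest pattern of all 69 genes by the ratio of its first 2 class means, which was 46.0. It lay between 63.2 and 570 CPM (median 239) in vascular cell-like nuclei and between 0 and 26.8 CPM (median 4.28) in astrocyte-like nuclei, with no overlap in 36 animals. Robo1 was highest in oligodendrocyte precursor-like nuclei (108 to 312 CPM, median 198), with 33 of 40 animals above their own value in other GABA neuron-like nuclei (35.5 to 236 CPM, median 139). The Slit ligands split between neuron classes. Slit1 was highest in immature neuron-like nuclei (216 to 639 CPM, median 459), then in cholinergic nuclei (149 to 437 CPM, median 309). Slit2 was highest in the mixed parvalbumin interneuron-like class (22.1 to 172 CPM, median 90.8), and Slit3 in D2 (median 402 CPM) and D1 nuclei (median 390 CPM). Some of these genes are neighbours in the RefSeq gene order of the vole: Robo2 and Robo1, Robo4 and Robo3, and Sema3d and Sema3a have 0 protein-coding genes between them, and Sema3a and Sema3e have 1. No such pair shared its highest class, since Robo2 was highest in cholinergic nuclei, Robo3 in glutamate neuron-like nuclei and Sema3a in somatostatin interneuron-like nuclei.

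Among the ephrins, Efnb1, a transmembrane ephrin, was highest in immature neuron-like nuclei (114 to 556 CPM, median 261). The next class with more than 3 animals, the oligodendrocyte precursors, had 0 to 165 CPM (median 46.4). Efna1 and Efna2, both lipid-anchored, were highest in oligodendrocyte-like nuclei. Efna1 had 43.7 to 265 CPM there (median 82.1) and 0 to 165 CPM (median 53.8) in vascular nuclei, and Efna2 had 41.9 to 158 CPM (median 99.7) there and 31.1 to 90.3 CPM (median 58.7) in astrocyte-like nuclei. Both pairs of ranges overlapped. Efnb3 was highest in somatostatin interneuron-like nuclei (25.1 to 312 CPM, median 157), overlapping the parvalbumin class (49.0 to 233 CPM, median 117).

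The EphA receptors that reached 20 CPM were all highest in a neuron class. Epha5 was highest in somatostatin interneuron-like nuclei, with 771 to 1770 CPM (median 1132), above its value in glutamate neuron-like nuclei (502 to 1036 CPM, median 771) in 32 of 32 animals. Epha6 was highest in the same class (218 to 800 CPM, median 419), next in cholinergic nuclei (135 to 611 CPM, median 289), and those ranges overlapped. Epha3 and Epha8 were highest in other GABA neuron-like nuclei, at medians of 120 and 29.0 CPM, both overlapping the next class. The EphB receptors were divided between glia, vessels and neurons. Ephb1 was highest in oligodendrocyte-like nuclei (60.7 to 222 CPM, median 154), Ephb3 in astrocyte-like nuclei (20.5 to 106 CPM, median 52.2) and Ephb4, the partner of Efnb2 in vessels, in vascular nuclei (19.5 to 232 CPM, median 78.9). Ephb6, which lacks kinase activity, was highest in glutamate neuron-like nuclei (18.7 to 276 CPM, median 168).

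Classes were next compared within animals. UMI counts were summed per animal and class and tested with edgeR's quasi-likelihood test with the animal as a block. Adjusted p is the Benjamini-Hochberg value over all genes tested, and a gene is called below 0.05. Log2 fold changes carry their standard error (SE). The share of all tested genes that was called is given beside each count, and the genes' shares are descriptions beside it, with no test of the group.

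D1 and D2 medium spiny neuron-like nuclei, the 2 main output neurons, had their largest named differences in the receptors Unc5c and Robo3 and the ligands Sema3e and Sema5b, all higher in D2, and in Nrp1 and Ephb1, both higher in D1. Of the 50 genes that passed the filter on low counts, 18 were higher in D1 (36% of them, against 14.0% of all genes tested) and 19 were lower (38%, against 14.6%). Of 25 receptors 13 were higher in D1 and 8 lower, and of 25 ligands 5 were higher and 11 lower. By family, 5 of 8 plexins and neuropilins and 3 of 3 EphB receptors were higher in D1, and 5 of 10 semaphorins of classes 4 to 7 were lower. Most differences were small: the median absolute log2 fold change was 0.257, and 0.0528 over all genes.

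The largest difference by the rule for named genes was Unc5c, a repulsive netrin receptor. Its level ran from 7.55 to 35.1 CPM (median 20.0) in D1 nuclei and from 51.3 to 116 CPM (median 91.8) in D2 nuclei of the same 40 animals, a log2 fold change of -2.25 ± 0.05 (edgeR adjusted p = 1.40e-59). Its D1 and D2 values did not overlap between any animals. At resolution 2, Unc5c was among the leading genes of 1 D2 cluster, that with Cpne7 (4547 nuclei). Sema3e was lower in D1 nuclei in 40 of 40 animals, with medians of 27.6 and 48.3 CPM (9.36 to 64.3 and 25.1 to 87.6), a log2 fold change of -0.86 ± 0.05 (edgeR adjusted p = 5.00e-31). Robo3, the Robo known from midline crossing, was lower in D1 in 37 of 40 animals, with medians of 10.5 and 21.0 CPM (2.75 to 31.1 and 3.42 to 65.8) and a log2 fold change of -0.99 ± 0.07 (edgeR adjusted p = 3.93e-23). Sema5b, a membrane semaphorin with thrombospondin repeats, had medians of 18.2 and 35.0 CPM (5.99 to 55.8 and 12.7 to 60.3) and a log2 fold change of -0.75 ± 0.06 (edgeR adjusted p = 3.40e-18). Some of these differences changed when only the largest cluster of each class was compared, a comparison added after the levels by cluster were seen. The Sema5b difference turned around, to a log2 fold change of 0.29 (edgeR adjusted p = 0.00643). That of Robo3 shrank to -0.36 (edgeR adjusted p = 1.85e-04), with medians of 11.1 CPM in the largest D1 and 11.6 CPM in the largest D2 cluster, and that of Sema3e to -0.50 (edgeR adjusted p = 3.74e-16). Of the 37 called genes 28 were called in the same direction there and 1, Sema5b, in the opposite one, with 45 genes tested.

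On the D1 side, Nrp1 ranged from 14.8 to 87.3 CPM (median 36.2) in D1 and from 3.42 to 53.8 CPM (median 21.8) in D2 nuclei, a log2 fold change of 0.86 ± 0.07 (edgeR adjusted p = 2.33e-18). It was higher in D1 in 37 of 40 animals, though the 2 ranges overlapped. Ephb1 had medians of 53.7 and 33.0 CPM (32.2 to 72.6 and 17.1 to 53.2) and was higher in D1 in 39 of 40 animals, with a log2 fold change of 0.60 ± 0.04 (edgeR adjusted p = 9.23e-24). Plxna1, a plexin that pairs with neuropilins, followed at 0.41 ± 0.04 (medians 45.8 and 34.0 CPM, edgeR adjusted p = 3.20e-14). Ntn4 was higher in D1 in 35 of 40 animals at 0.39 ± 0.06 (medians 23.6 and 17.5 CPM, edgeR adjusted p = 9.68e-08), and at 0.21 between the largest clusters (edgeR adjusted p = 0.0111). These 2 genes overlapped widely between the classes. Below the 20 CPM needed for naming, and picked after their values were seen, Unc5d (-2.98) and Ntng1 (-2.86) were lower and Epha10 (2.00) higher in D1 on the log2 scale, with means of 2.44 against 18.1, 1.46 against 10.1 and 17.3 against 4.28 CPM.

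**Figure D2:**
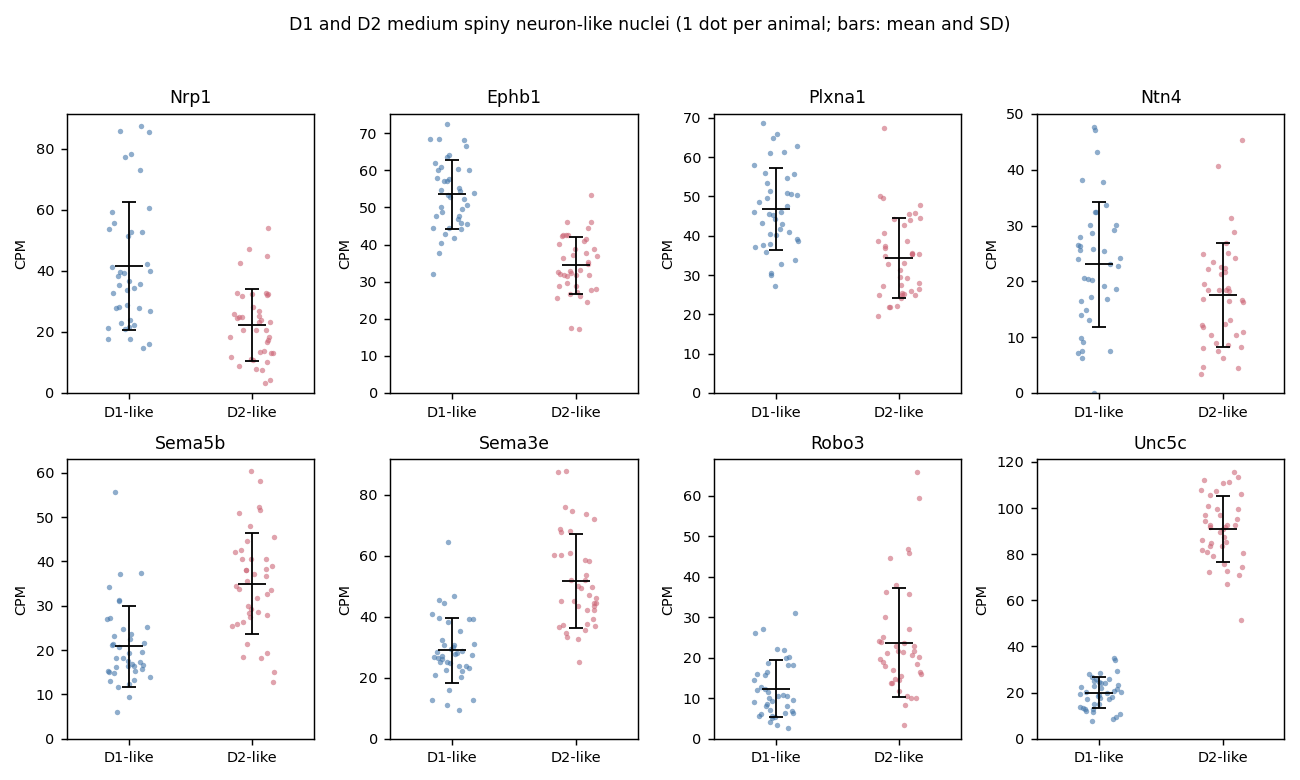
Level (CPM, vertical axis) of the 8 named genes in D1 and D2 medium spiny neuron-like nuclei; each dot is 1 of 40 animals, and bars give the mean and SD over animals. Unc5c separates the classes with no overlap, while the other 7 genes overlap between them.

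Eccentric medium spiny neuron-like nuclei were set against the mean of the D1 and D2 nuclei of the same animal (40 animals). In the eccentric nuclei 7 D1 markers summed to 3099 CPM, beside 4374 CPM in D1 nuclei. The 8 D2 markers summed to 4036 CPM, beside 8868 CPM in D2 nuclei. The 8 eccentric markers summed to 1705 CPM, beside 154 and 133 CPM in D1 and D2 nuclei. At resolution 2 the class held clusters led by Foxp2 (11402 nuclei) and Col14a1 (2878 nuclei). The part of this makeup in the comparison was not tested. Of 53 genes tested, 26 were higher (49.1%, against 31.1% of all genes) and 23 lower (43.4%, against 31.2%). Semaphorins of classes 4 to 7 were mostly higher (8 of 12, with 2 lower), and netrins and their receptors mostly lower (5 of 7, with 2 higher).

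Among the ligands, Sema3c was at 4.71 to 119 CPM (median 34.4) in eccentric nuclei and at 0 to 3.29 CPM (median 1.19) in D1 and D2 nuclei, a log2 fold change of 4.77 ± 0.12 (edgeR adjusted p = 5.83e-66). Ntng1, a lipid-anchored netrin-G of synapses, was at 26.0 to 72.3 CPM (median 44.2) against 0.850 to 13.2 CPM (median 4.87), a log2 fold change of 3.55 ± 0.10 (edgeR adjusted p = 9.09e-61). Sema5a was at 47.1 to 159 CPM (median 83.4) against 5.73 to 20.8 CPM (median 10.5), a log2 fold change of 3.02 ± 0.07 (edgeR adjusted p = 3.48e-72). The lowest eccentric value of each of these 3 genes lay above the highest D1 and D2 value. Sema6a had medians of 31.0 and 1.52 CPM and a log2 fold change of 4.14 ± 0.11 (edgeR adjusted p = 4.06e-65), with 39 of 40 animals higher.

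In the other direction, Plxnd1, the receptor of Sema3e, was at 0 to 12.6 CPM (median 4.69) in eccentric nuclei and 39.0 to 122 CPM (median 81.7) in D1 and D2 nuclei, a log2 fold change of -3.78 ± 0.09 (edgeR adjusted p = 1.49e-70). Ntn1 was at 3.13 to 43.3 CPM (median 14.9) against 51.1 to 110 CPM (median 82.0), a log2 fold change of -2.34 ± 0.07 (edgeR adjusted p = 2.15e-59). Efnb1 was at 0 to 25.7 CPM (median 10.1) against 28.3 to 70.2 CPM (median 39.3; edgeR adjusted p = 4.66e-45). All 3 were lower in 40 of 40 animals, with no overlap. Sema3f was lower in 39 of 40 animals at -1.37 ± 0.07 (medians 14.6 and 35.7 CPM, edgeR adjusted p = 1.20e-36). Of the 3 spiny classes, the eccentric one thus had the highest mean of Sema3e and the lowest of its receptor Plxnd1.

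Glutamate neuron-like nuclei were compared with the D1 and D2 mean in the same way (40 animals). Of 55 genes tested, 30 were higher (54.5%, against 40.8% of all genes) and 21 lower (38.2%, against 42.7%, so near the share of all genes). Of 12 class 4 to 7 semaphorins 8 were higher and 3 lower, and class 3 semaphorins were split with 2 higher and 3 lower of 5.

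Ntng2, the other netrin-G, had the largest difference: 0 to 227 CPM (median 125) in glutamate neuron-like nuclei and 0 to 6.54 CPM (median 2.07) in D1 and D2 nuclei, a log2 fold change of 5.69 ± 0.07 (edgeR adjusted p = 1.26e-86). It was higher in 39 of 40 animals. Ntng2 differed between the clusters of this class, as given below, and was low in cluster 19. That cluster made up 14.6% to 63.8% of the class by animal. At resolution 2, Ntng2 was a leading gene of the cluster led by Nr4a2 and Slc26a4 (4694 nuclei). Nrp2 was at 93.5 to 301 CPM (median 181) against 1.89 to 30.4 CPM (median 5.61), a log2 fold change of 4.62 ± 0.08 (edgeR adjusted p = 1.45e-73), with no overlap. Sema3c (4.33 ± 0.11, medians 27.7 and 1.19 CPM, edgeR adjusted p = 6.19e-58) and Sema4a (3.75 ± 0.06, medians 55.8 and 3.49 CPM, edgeR adjusted p = 1.25e-74) were higher in 40 of 40 animals, also without overlap. The lower genes were led by Ntn1, at 0 to 37.4 CPM (median 2.47) against 51.1 to 110 CPM (median 82.0), a log2 fold change of -4.50 ± 0.09 (edgeR adjusted p = 1.49e-68). Its receptor Dcc was lower too, at 23.1 to 112 CPM (median 42.6) against 147 to 264 CPM (median 197), a log2 fold change of -2.25 ± 0.03 (edgeR adjusted p = 2.01e-77). Neither gene overlapped between the classes. Sema3f (-2.82 ± 0.06, edgeR adjusted p = 8.40e-63) and Epha8 (-2.27 ± 0.09, edgeR adjusted p = 1.78e-44) were lower in 40 of 40 animals, at medians of 5.30 against 35.7 CPM and 3.81 against 19.4 CPM.

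Immature neuron-like nuclei were compared in 39 animals. They were named from markers of young neurons, in a list that also held Mki67 and Top2a, genes of dividing cells. Such genes (Mki67, Bub1, Kif23 and Cenpf) were among the leading genes of this cluster. At resolution 2, Mki67, Bub1 and Kif23 led an immature neuron-like cluster of 681 nuclei, and Igfbpl1 and Chrna3 led another of 2909. The part of dividing nuclei in the result was not tested. These nuclei were shallow, with a median of 686 UMIs per nucleus beside 2087 in D1 and 1933 in D2 nuclei, and the part of depth in the result was not tested. Of 53 genes tested, 21 were higher (39.6%, against 32.1% of all genes) and 22 lower (41.5%, against 42.3%), both near the shares of all genes. Plxnb1 was higher in 38 of 39 animals, at 0 to 182 CPM (median 81.1) against 0 to 8.68 CPM (median 2.18), a log2 fold change of 4.90 ± 0.17 (edgeR adjusted p = 4.56e-58). Nrp2 was higher in 38 of 39 at 3.83 ± 0.16 (medians 108 and 5.45 CPM, edgeR adjusted p = 5.19e-48). Ephb4 (2.97 ± 0.25, medians 23.8 and 2.60 CPM, edgeR adjusted p = 1.13e-21) and Sema4a (2.91 ± 0.19, medians 28.8 and 3.33 CPM, edgeR adjusted p = 1.07e-30) were higher in 35 of 39. All 4 overlapped, since single animals had 0 UMIs of them in the immature class. Slit3 was lower without overlap, at 0 to 256 CPM (median 42.6) against 314 to 500 CPM (median 400), a log2 fold change of -3.37 ± 0.09 (edgeR adjusted p = 4.63e-71). Ntn1 (-3.38 ± 0.18, edgeR adjusted p = 4.98e-38), Sema3f (-3.26 ± 0.24, edgeR adjusted p = 1.41e-26) and Epha8 (-4.39 ± 0.36, edgeR adjusted p = 2.85e-22) were lower, with immature medians of 4.34, 0 and 0 CPM.

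Astrocyte-like nuclei had Plxnb1, Ephb3, Sema6a and Sema4a far above D1 and D2 nuclei and Slit3, Sema4f, Epha8 and Sema3f far below them. Of 54 tested in 39 animals, 16 were higher (29.6%, against 40.5% of all genes) and 35 lower (64.8%, against 46.8%). All 5 Slits and Robos, all 4 class 3 semaphorins and 6 of 7 EphA receptors tested were lower, while 7 of 12 class 4 to 7 semaphorins were higher. Of the 27 receptors, 20 were lower and 5 higher. The median UMI count per nucleus was 773 in the astrocytes, beside the higher counts of the spiny neurons given above.

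Plxnb1 showed the largest difference, at 402 to 722 CPM (median 534) against 0 to 4.00 CPM (median 2.18), a log2 fold change of 7.95 ± 0.05 (edgeR adjusted p = 1.34e-117). Ephb3 was at 20.5 to 106 CPM (median 52.2) against 0 to 1.26 CPM (median 0.227), a log2 fold change of 7.40 ± 0.13 (edgeR adjusted p = 7.70e-76). The ligands Sema6a (5.31 ± 0.10, medians 65.0 and 1.62 CPM, edgeR adjusted p = 4.72e-73) and Sema4a (4.12 ± 0.08, medians 65.9 and 3.65 CPM, edgeR adjusted p = 4.27e-71) followed. None of the 4 overlapped between the classes. On the neuron side, Slit3 was at 0 to 27.6 CPM (median 10.0) in astrocytes and 314 to 500 CPM (median 393) in D1 and D2 nuclei, a log2 fold change of -5.15 ± 0.06 (edgeR adjusted p = 6.86e-91). Sema4f was at medians of 2.81 and 119 CPM, a log2 fold change of -4.89 ± 0.11 (edgeR adjusted p = 4.68e-67). Epha8 (-4.07 ± 0.19, edgeR adjusted p = 2.51e-39) and Sema3f (-4.03 ± 0.14, edgeR adjusted p = 3.74e-48) had astrocyte medians of 0 and 1.92 CPM. These 4 were lower in 39 of 39 animals without overlap.

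Oligodendrocyte precursor-like nuclei were compared with mature oligodendrocyte-like nuclei in 40 animals. Only 22 of the genes passed the filter on low counts in these 2 classes, which had medians of 811 and 666 UMIs per nucleus. Of them 10 were higher in precursors (45.5%, against 40.6% of all genes) and 11 lower (50%, against 39.5%). The secreted netrins Ntn4 and Ntn1 were both higher in precursors. Ntn4 was at 38.5 to 270 CPM (median 173) in precursors and 0 to 20.7 CPM (median 0) in oligodendrocytes, a log2 fold change of 5.38 ± 0.18 (edgeR adjusted p = 8.06e-37), and Ntn1 was at 37.5 to 247 CPM (median 142) against 0 to 29.5 CPM (median 0), a log2 fold change of 5.13 ± 0.19 (edgeR adjusted p = 1.87e-34). Neither overlapped. Sema3d (4.17 ± 0.19, medians 85.0 and 3.41 CPM, edgeR adjusted p = 7.55e-29) and Robo1 (3.54 ± 0.14, medians 198 and 13.2 CPM, edgeR adjusted p = 6.78e-33) were the other named precursor genes.

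The netrin receptor Unc5b went the opposite way to the 2 netrins. It was at 0 to 12.0 CPM (median 0) in precursors and 64.0 to 229 CPM (median 130) in oligodendrocytes, a log2 fold change of -6.50 ± 0.18 (edgeR adjusted p = 5.33e-41), with no overlap in 40 animals. Efna1 (-3.06 ± 0.19, medians 7.30 and 82.1 CPM, edgeR adjusted p = 5.42e-23), Ephb1 (-1.81 ± 0.09, medians 49.2 and 154 CPM, edgeR adjusted p = 1.57e-26) and Efna2 (-1.30 ± 0.10, medians 42.3 and 99.7 CPM, edgeR adjusted p = 3.93e-18) were lower in precursors in 40 of 40 animals. Ranges of the latter 3 overlapped.

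**Figure D3:**
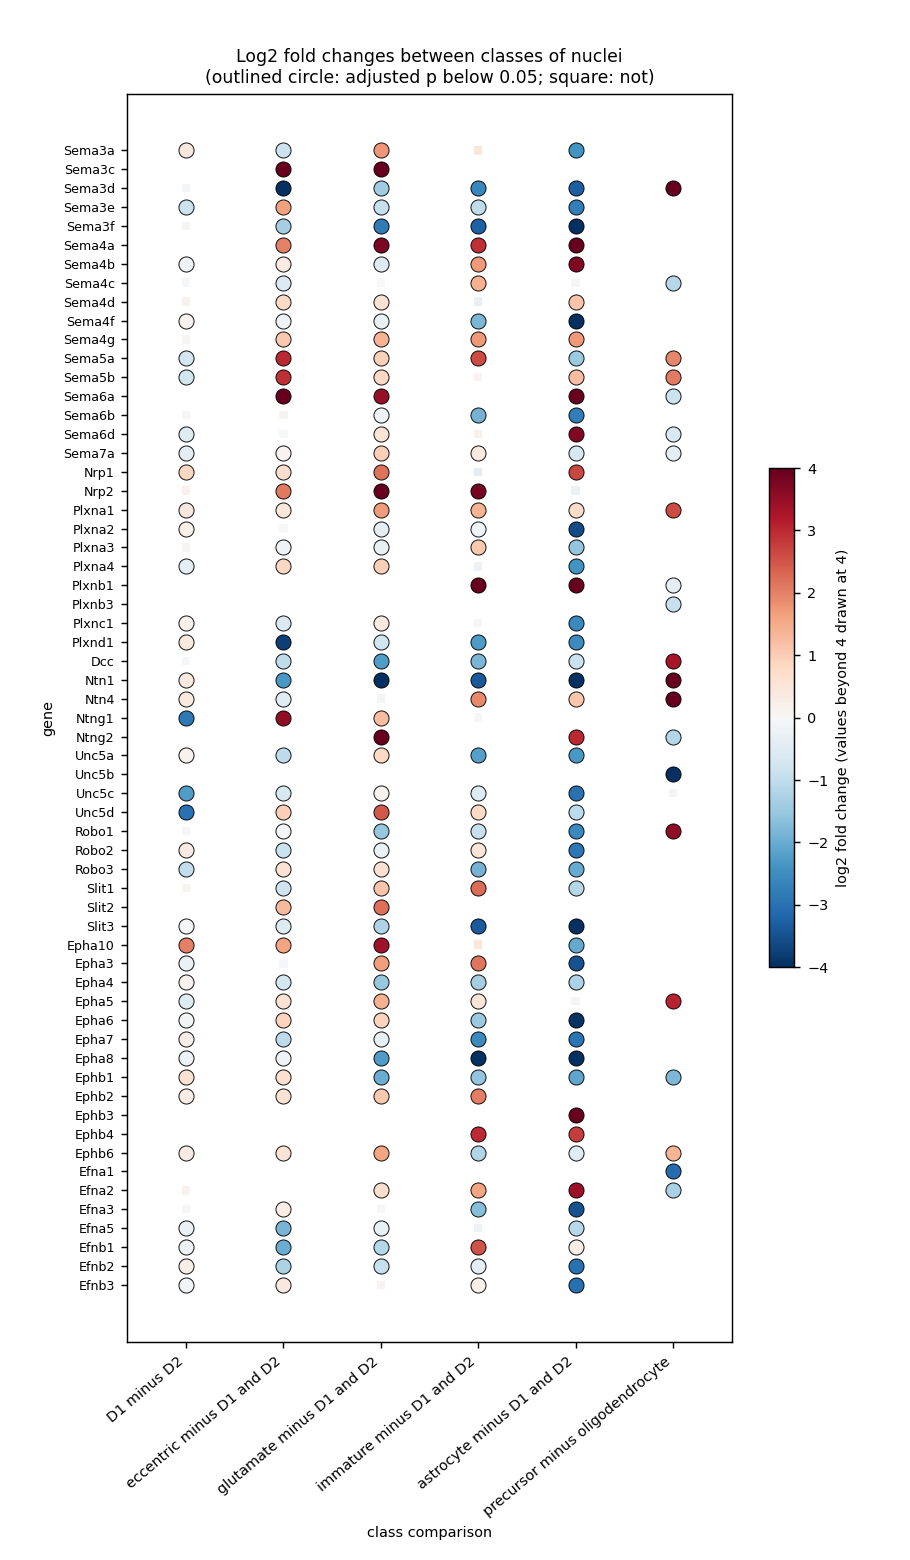
Log2 fold change (colour, red higher in the first class, blue lower, values beyond 4 drawn at 4) of each gene tested in the 6 comparisons of classes; outlined circles have an adjusted p below 0.05 and squares do not. The D1 minus D2 column is the palest, with Unc5c, Ntng1, Unc5d and Epha10 as its strongest entries, and the astrocyte column is mostly dark blue in its Slit, Robo and EphA rows.

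Other genes of the pathway were counted in the same fits from 2 fixed lists. The first holds 25 further ligands, receptors and adhesion partners of guidance. In D1 against D2 nuclei 6 of its 22 tested genes were higher and 11 lower (77.3% called, beside 28.6% of all genes tested). In the eccentric nuclei 14 were higher and 8 lower of 24, in the glutamate nuclei 12 and 10 of 24, in the immature nuclei 10 and 9 of 24 and in astrocytes 10 and 12 of 22. In precursors against oligodendrocytes 10 of 13 were higher and 3 lower. Of all genes tested, 62.4% were called in the eccentric, 83.5% in the glutamate, 74.4% in the immature, 87.2% in the astrocyte and 80.1% in the precursor comparison. The second list holds 53 intracellular effectors such as kinases and collapsin response proteins. It had 9 higher and 10 lower of 46 in D1 against D2 nuclei, where 41.3% of its tested genes were called, beside 28.6% of all genes tested and 74% of the ligands and receptors. For the eccentric, glutamate, immature and astrocyte comparisons the effectors had 20 and 16 of 45, 27 and 18 of 49, 19 and 22 of 47, and 21 and 24 of 48 higher and lower. In precursors against oligodendrocytes they had 8 and 10 of 23.

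Within the classes, some guidance genes differed between clusters. The genes named in this and the next paragraph were chosen after their values were seen, and no test was made. The D2 class held 2 clusters: cluster 5, with 23725 nuclei, and cluster 6, with 6846, whose leading genes included Fosb, Npas4 and Nr4a3, immediate early genes, together with Cpne7. Sema5b was at 52.9 to 165 CPM (median 97.2) in cluster 6 and 1.45 to 29.1 CPM (median 14.4) in cluster 5, with no overlap in 40 animals. Ntng1 was at 5.32 to 69.9 CPM (median 30.0) against 0 to 10.1 CPM (median 3.84), and Sema5a at 0 to 96.2 CPM (median 36.7) against 0 to 17.4 CPM (median 4.87). Sema6d, Robo3 and Sema3e had medians of 62.1, 46.4 and 81.2 CPM against 17.1, 11.6 and 38.2 CPM. On the other side Plxnd1 had medians of 30.5 and 83.4 CPM, Efnb2 60.9 and 137 CPM, and Ntn1 38.6 and 82.1 CPM. The mean of cluster 6 lay between those of cluster 5 and the eccentric class for Sema5b, Ntng1, Sema5a, Sema3e, Plxnd1, Efnb2 and Ntn1. Robo3 and Sema6d were higher in cluster 6 than in either. At resolution 2, Fosb, Npas4 and Nr4a3 were leading genes of a D2 cluster of 2882 nuclei, and Cpne7 of a separate D2 cluster of 4547. Cluster 6 may thus mix different kinds of nuclei, and the part of each in these levels was not tested.

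**Figure D4:**
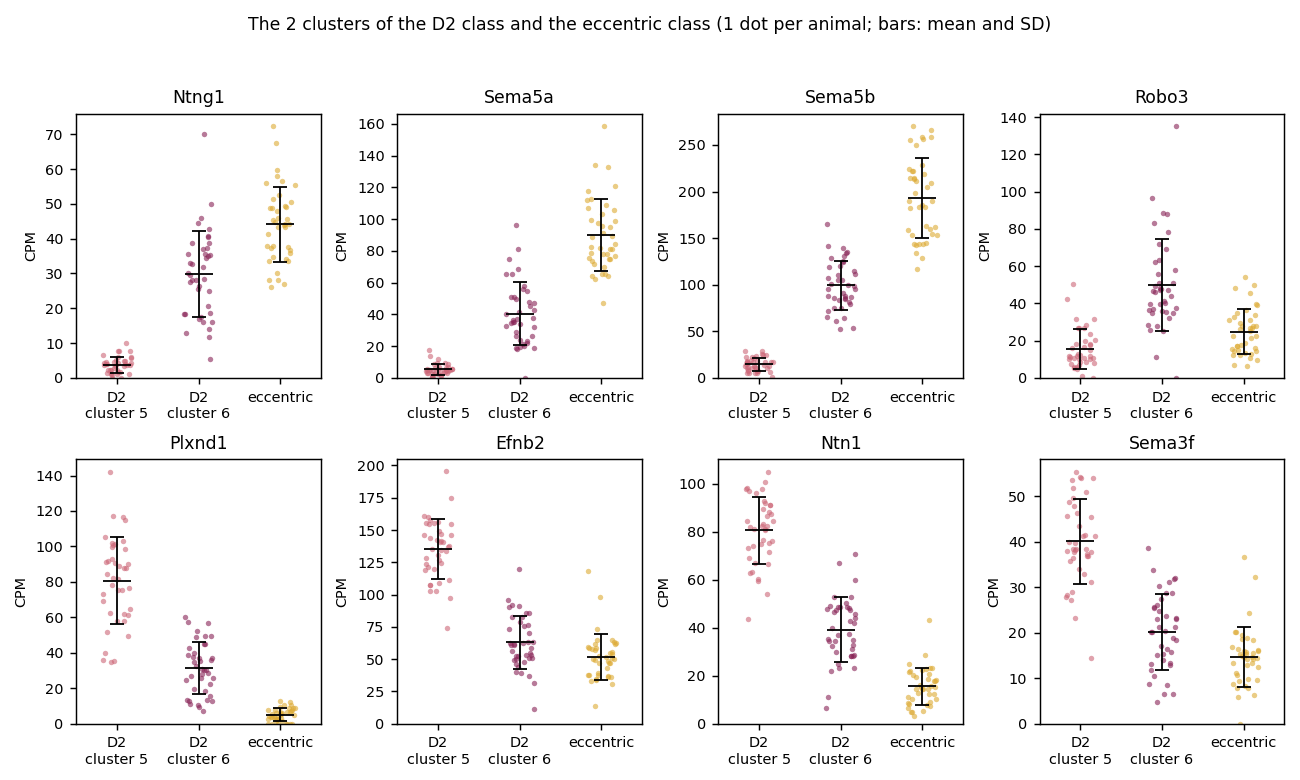
Level (CPM, vertical axis) of 8 genes in cluster 5 and cluster 6 of the D2 class and in the eccentric class; each dot is 1 of 40 animals, and bars give the mean and SD. Cluster 6 lies between cluster 5 and the eccentric class for Ntng1, Sema5a, Sema5b, Plxnd1, Efnb2, Ntn1 and Sema3f.

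In the D1 class, cluster 4, led by Pdyn and immediate early genes (4007 nuclei), had Sema5b at least 2 times as high as in the largest cluster, 0, alone of the 36 genes at 20 CPM or more (medians 33.0 and 15.7 CPM, higher in 35 of 39 animals). Cluster 2, led by Dlk1 and Arhgap36 (1804 nuclei), had Plxnc1 at 137 to 418 CPM (median 271) against 83.6 to 168 CPM (median 123), higher in 32 of 32 animals. Its ligand Sema7a was at 0 to 41.8 CPM (median 8.66) in the same cluster against 27.5 to 79.0 CPM (median 44.5), lower in 32 of 32 animals. The receptor was thus higher and the ligand lower in cluster 2. In the glutamate neuron-like class, cluster 19, with Rxfp2 and Hs3st4 among its leading genes, was set beside cluster 17, led by Slc30a3. Ntng2 was at 0 to 41.6 CPM (median 6.92) in cluster 19 and 83.9 to 301 CPM (median 176) in cluster 17, and Epha4 at 9.10 to 86.3 CPM (median 25.7) against 135 to 368 CPM (median 242). Sema5b was at 71.2 to 173 CPM (median 112) against 7.06 to 49.8 CPM (median 19.1), and Sema4g at medians of 48.9 and 9.49 CPM. None of these 4 overlapped in 39 animals. Both neuropilins were higher in cluster 19 in 39 of 39 animals (medians 234 and 91.8 CPM for Nrp1, 322 and 125 CPM for Nrp2). The other glutamate cluster, 18, drew 55.4% of its nuclei from male mate 2 and is not described.

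Between animals, the spread of these genes was somewhat above that of all genes tested. The median biological coefficient of variation, edgeR's estimate of the relative spread between animals beyond counting, was 0.187 for the genes and 0.155 for all genes in D1 nuclei. It was 0.196 and 0.155 in D2 nuclei, 0.197 and 0.178 over all nuclei, and 0.510 and 0.231 in microglia-like nuclei, where 12 of the genes were tested. Markers of medium spiny neurons varied widely between animals in the microglia-like nuclei (given below), and their part in this spread was not tested. Within D1 nuclei, Epha4 (0.118; 332 to 611 CPM, median 503) and Slit3 (0.121; 293 to 484 CPM, median 390) varied little. Both were near the median for genes of like level, 0.132 for Epha4 and 0.129 for Slit3. Efna2 had the lowest estimate (0.0648) at a low level (0 to 9.36 CPM). The most variable genes were Nrp2 (0.682; 1.05 to 35.0 CPM, median 5.62), Sema3a (0.568; 0.987 to 22.7 CPM, median 8.92) and Robo3 (0.496; 2.75 to 31.1 CPM, median 10.5), beside a median of 0.239, 0.230 and 0.207 for genes of like level. In D2 nuclei Epha7 (0.116; 284 to 446 CPM), Unc5c (0.116; 51.3 to 116 CPM) and Sema4c (0.117; 34.2 to 85.4 CPM) varied least, and Slit2 (0.539; 0.541 to 13.6 CPM), Sema3a (0.487; 0 to 15.2 CPM) and Unc5d (0.472; 4.02 to 45.5 CPM) most. For Epha7, Unc5c and Sema4c the median of genes of like level was 0.129, 0.131 and 0.143. Male peer 5, the library with the lowest share of glutamate neuron-like nuclei, had the highest Nrp2 and Sema3a in D1 nuclei and the highest Unc5d in D2 nuclei. The part of this library in those spreads was not tested.

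Pairing and sex were compared over animals, first in sums over all nuclei, where fewer cells of a type and less RNA per cell cannot be told apart. Of 65 genes tested in 40 animals, 0 were called for mate against peer (0% of all genes), 0 for female against male (0.0219% of all genes) and 0 for the interaction of the 2 (0%) by edgeR, whose shares of all genes these are. DESeq2 also called 0 of the 65 for each. At an unadjusted p under 0.05 edgeR had 1, 4 and 2 of the 65, beside 956, 1132 and 269 of all 13708 genes tested, and DESeq2 had 1, 3 and 2 of the 65. The median absolute log2 fold change between mates and peers was 0.0751, beside a median SE of 0.0947.

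The gene with the lowest p for pairing was Efna1, at 1.82 to 7.34 CPM (median 3.88) in 22 mates and 2.91 to 8.63 CPM (median 4.62) in 18 peers, a log2 fold change of -0.32 ± 0.15 (edgeR adjusted p = 0.708). Slit3 (0.13 ± 0.07, medians 247 and 225 CPM) and Unc5c (0.13 ± 0.07, medians 48.2 and 44.6 CPM) came next, each with an edgeR adjusted p of 0.709. All 3 overlapped widely. For sex, Plxnb3 had medians of 15.2 CPM in 19 females and 13.8 CPM in 21 males (11.1 to 26.8 and 5.85 to 16.5), a log2 fold change of 0.28 ± 0.10 (edgeR adjusted p = 0.527). Epha10, an Eph receptor without kinase activity, had medians of 30.8 and 38.1 CPM (-0.35 ± 0.13, edgeR adjusted p = 0.530), and Unc5a 111 and 123 CPM (-0.14 ± 0.07, edgeR adjusted p = 0.599). For the interaction the 3 lowest p values belonged to Sema6d (-0.28 ± 0.12), Sema3f (0.56 ± 0.26) and Ephb2 (-0.31 ± 0.18), each with an edgeR adjusted p of 1.000. Group medians of Sema6d were 51.3, 58.4, 54.6 and 48.5 CPM in female mates, female peers, male mates and male peers, with overlap between all 4 groups.

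**Figure D5:**
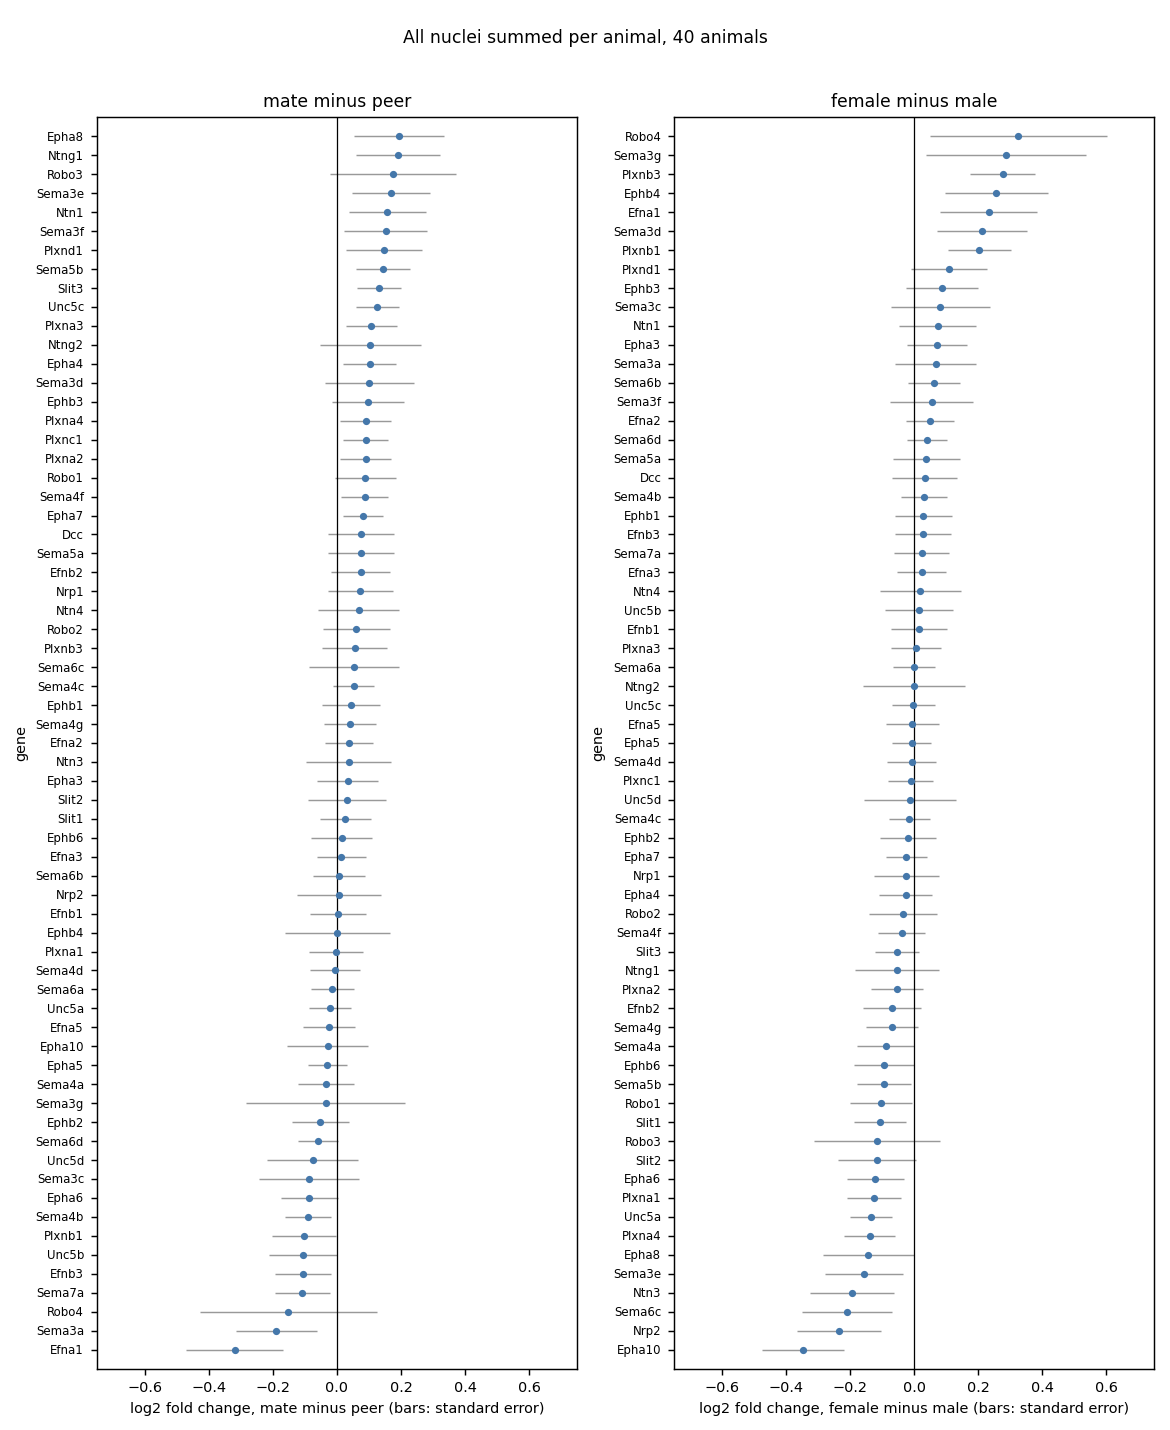
Log2 fold change with its standard error for the 65 genes tested in sums over all nuclei of 40 animals, mate minus peer on the left and female minus male on the right. The largest difference is 0.348 in size (Epha10, higher in males), and no gene had an adjusted p below 0.05.

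Within classes, 13 classes had enough animals, and 62 genes formed 381 gene and class pairs that could be tested. Again edgeR called 0 pairs for pairing (0% of all such pairs over all genes), 0 for sex (0.0219%) and 0 for the interaction (0%). DESeq2 also called 0 of the 381 pairs for each. At an unadjusted p under 0.05 edgeR had 12, 18 and 9 of the 381 pairs, beside 4677, 4264 and 2362 of the 86811 pairs over all genes, and DESeq2 had 12, 17 and 9 of the 381. For pairing, Nrp2 in immature neuron-like nuclei ran from 0 to 201 CPM (median 77.6) in mates and 23.8 to 276 CPM (median 134) in peers, a log2 fold change of -0.58 ± 0.22 (edgeR adjusted p = 0.702). Plxna4 in eccentric nuclei had medians of 87.0 and 76.1 CPM (0.25 ± 0.10, edgeR adjusted p = 0.953). For sex the lowest p values were those of Sema3e in eccentric nuclei (medians 103 CPM in females and 136 CPM in males, -0.37 ± 0.12, edgeR adjusted p = 0.969), Plxnc1 in somatostatin interneuron-like nuclei (84.5 and 151 CPM, -0.59 ± 0.19, edgeR adjusted p = 0.967) and Efnb1 in D1 nuclei (31.8 and 39.0 CPM, -0.32 ± 0.10, edgeR adjusted p = 0.918). All of these overlapped between the groups. For the interaction they were Sema3f in D2 nuclei (0.56 ± 0.19), Plxna3 in glutamate neuron-like nuclei (-0.53 ± 0.21) and Epha7 in eccentric nuclei (0.44 ± 0.18), with edgeR adjusted p of 1.000 each.

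The lowest p for pairing within a class was that of Slit3 in microglia-like nuclei, at 19.2 to 567 CPM (median 96.4) in mates and 0 to 177 CPM (median 36.3) in peers, a log2 fold change of 0.94 ± 0.34 (edgeR adjusted p = 0.305). With only animals that had at least 50 microglia-like nuclei, the log2 fold change was 1.20 and the edgeR adjusted p 0.0468, beside 146 of all 4048 genes tested in this class that were called for pairing in those 37 animals and 0 of 4007 in the 40. Markers of the medium spiny neurons, where Slit3 is high, also had higher medians in mates than in peers in these nuclei, with wide overlap. The summed level of 7 D1 markers had a median of 556 CPM in mates (105 to 1455) and 328 CPM in peers (112 to 1060), and that of 8 D2 markers 861 CPM (95.7 to 2567) and 356 CPM (151 to 2007). The 9 microglia markers summed to medians of 22446 CPM (3458 to 45446) and 27811 CPM (8383 to 44835). No marker of these 3 lists was at 0 in all animals. Their part in the Slit3 difference was not tested.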

How the data were processed

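Single-nucleus libraries of 40 vole accumbens samples, 1 animal each, were deposited by the authors as raw UMI counts per gene and barcode. Cell Ranger 3.1.0 made them, per the submitters' processing notes, and the genome build is not given in the sources used here. A barcode needed 500 UMIs, and no more than 5% of them mitochondrial, and 7608 doublets (4.09%) were removed after that. Nuclei were clustered with scanpy 1.11.5 (2000 variable genes, 30 components, 15 neighbours, Leiden resolution 1), leaving the guidance genes and listed pathway genes out of the variable genes. There were 18 marker lists (133 genes), and clusters were named from all but the list of genes shared by medium spiny neurons. Summed counts per animal (at least 20 nuclei per class, at least 6 animals per group) were tested with edgeR 4.0.16 (quasi-likelihood test, TMM factors), Benjamini-Hochberg over all genes tested, and with DESeq2 1.42.0 as an alternative. The code was tested on simulated data.

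Named genes were, by rule, up to 4 per family by the ratio of the first 2 class means, up to 4 called genes per direction in class comparisons by fold change, at 20 CPM or more, the 3 lowest p values elsewhere, and the 3 lowest and highest spreads. The genes and lists were chosen with earlier results of these data known. Alternatives were RLE factors, no low-count filter, 50 nuclei, 10% free RNA subtracted, doublets kept, guidance genes among the variable genes, resolution 2, blocks of 10 label numbers as a term, and leaving out male mate 2 or female peer 1. Leaving out female peer 1 and comparing the largest D1 and D2 clusters were added after seeing the data.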

Additional observations from a re-analysis of the deposited data

Results flagged for a closer look

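In 38 groups of 4 to 10 animals among the named genes of the pairing and sex comparisons, 3 values lay far from the rest of their group by Dixon's criterion at 95%, where chance alone marks about 1 group in 20. Mate groups of 11 animals were beyond this size and were not checked, so nearly all checked groups were peers. Slit3 in microglia-like nuclei of male mates (highest 567 CPM, median 104) was among those not checked. Sema6d over all nuclei was 76.6 CPM in male peer 5, and the next male peer had 56.3 CPM. Plxna3 in glutamate neuron-like nuclei was 35.5 CPM in female peer 8, with the next female peer at 25.4 CPM. Plxna3 in glutamate neuron-like nuclei was 0 CPM in male peer 5, with the next male peer at 12.0 CPM. Male peer 5 had the lowest share of glutamate neuron-like nuclei, 0.531% of its nuclei.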

How the results depend on the processing

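Of the alternative values of the counts by comparison, 214 stayed within 1.5 times the reported count and 3 moved beyond it, and of those of single named genes 619 kept their direction and side of the threshold. Without the filter on low counts, 48 genes were called between oligodendrocyte precursors and oligodendrocytes (35 higher), beside 21 (10 higher) with it, since 67 and not 22 genes were then tested. Over all genes the calls were 8080 of 15706 without the filter and 3453 of 4313 with it. With at least 50 nuclei per animal and class, 1 pair was called for pairing, Slit3 in microglia-like nuclei (log2 fold change 1.20, edgeR adjusted p = 0.0468), beside 147 of 82560 pairs over all genes, 146 of them in microglia-like nuclei, and the cause was not tested. With the largest cluster of each class, Sema5b in D1 against D2 nuclei reversed to 0.29 (edgeR adjusted p = 0.00643), while Robo3 moved from -0.99 to -0.36 and Sema3e from -0.86 to -0.50. There 32 of 45 genes were called in place of 37 of 50, and 28 of the 37 kept their call and direction, while over all genes 2355 of 9918 were called in place of 2920 of 10202. Leaving out male mate 2 or female peer 1 changed no named call. No fit with partners as a block was made: the labels' numbers are not shared between the groups of animals, and although each odd number and the even number after it are of 1 partner type, 1 female and 1 male among mates and of 1 sex among peers, the labels do not say that they mark animals that lived together. Only 3 animals had 20 differentiating oligodendrocyte-like nuclei, and 9 of the genes could be tested in vascular cell-like and 12 in microglia-like nuclei.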

Other observations

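Clusters left unnamed held guidance genes as well. Cluster 13, led by genes of motile cilia such as Cfap43 and Dnah11 with Gfap among its leading genes (2918 nuclei), had Plxnb1 at 80.6 to 553 CPM (median 304 over 38 animals) and Efnb1 at 48.1 to 444 CPM (median 172). Each of these medians lay above that of the next class given above for the gene. At resolution 2, Cfap43 and Dnah11 were leading genes of a cluster of 187 nuclei, and Fzd5, Celsr1 and Gfap led another of 2820. Most nuclei of cluster 13 may thus not be ciliated, and their part in these levels was not tested. Cluster 3, led by Cck and Stmn1 (9085 nuclei), had Epha5 at 280 to 637 CPM (median 372) and Slit1 at 42.4 to 246 CPM (median 151) over 39 animals. Its best marker list was that of glutamate neurons, with 7 markers raised, but a gene of another list was among its leading genes. The glutamate neuron-like class described above therefore leaves these nuclei out. Cluster 1, with mitochondrial genes among its leading genes (9186 nuclei), had Epha4 at 99.4 to 478 CPM (median 326) and Slit3 at 0 to 417 CPM (median 256) over 40 animals. These levels are descriptions with no test.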
